A study of Mus musculus with 2 samples.

Results

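The regions described here are the binding peaks of Tdg on mouse chromosome 7, 4993 of the 72970 peaks deposited for the Bio-Tdg library. They were selected on the chromosome column of the peak list, and the chromosome itself was chosen by its peak number, as the autosome with the fewest peaks per protein-coding gene. Peak numbers along and between chromosomes are therefore given as descriptions, with no test. The series held 2 ChIP-seq libraries of E14, a mouse embryonic stem cell line. Cells labelled Bio-Tdg, in which Tdg carries a tag for biotinylation, gave 1 library. Cells labelled BirA (mock), which carry the biotin ligase, gave the other, and no file of that library was analysed here. Both groups share the E14 background, and the labels give neither the clone nor the number of cultures. With 1 library per group no value has a replicate error, the total depth is unknown, and intervals cover counting error only. They treat every peak as an independent event, so crowding makes them too narrow. Positions are in build mm9, the build named in the submitters' processing notes.

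Tdg, thymine DNA glycosylase, removes formylcytosine and carboxylcytosine, the bases that Tet enzymes make by oxidising methylcytosine, and repair then restores an unmodified cytosine. In embryonic stem cells this turnover has been described mainly at regulatory DNA, such as promoters and enhancers. Chromosome 7 is a mixed chromosome in the mouse. It carries gene-dense tracts of broadly expressed genes, the imprinted genes Igf2, H19, Kcnq1ot1, Snrpn and Peg3, which are expressed from a single parental copy, and large arrays of olfactory and vomeronasal receptor genes, which serve smell and pheromone sensing in sensory neurons. Of 24 imprinted genes listed for this chromosome, 23 were matched by symbol in the gene table, and 23 of those lay on chromosome 7.

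The 4993 peaks lay between positions 3168020 and 152512437 and covered 5.57 Mb, or 3.73% of that span. They made up 6.84% of the list, and chromosome 7 ranked 5 by number of peaks. Its density was 33.4 peaks per Mb, with an exact 95% Poisson interval of 32.5 to 34.4, and the other 18 autosomes together had 29.8 per Mb. The ratio was 1.12 (1.09 to 1.15), and it was 1.01 once peaks less than 5 kb apart were merged. By this measure chromosome 7 was the eighth densest of the 19 autosomes, close to chromosomes 9 and 2, and its peaks were neither rare nor unusually frequent for its length.

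Peaks of chromosome 7 were slightly wider than elsewhere. Their median width was 885 bp with quartiles of 625 and 1381 bp, against 849.5 bp with quartiles of 613 and 1307 bp on the other autosomes. This median was the highest of the 19 autosomes, with chromosome 17 next at 883 bp and chromosome 1 lowest at 823 bp. The median score, the authors' own value per peak, was 592 on chromosome 7 and 552 on the other autosomes. A score of at least 1000 was reached by 31.0% of the peaks on chromosome 7 and by 28.2% on the other autosomes. The quartiles of both sets overlap over most of their range, so the differences are small beside the spread between peaks.

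Read numbers were recovered from score and width for all but the highest scores, as set out under processing. On chromosome 7, 4823 peaks had such a number, from 21 to 224 reads. Their median was 44 and their quartiles were 27 and 83, against a median of 41 and quartiles of 26 and 77 on the other autosomes. Read density was 50.4 reads per kb on chromosome 7 and 49.5 on the other autosomes, again a small difference. At matched width the densities were close to each other. Peaks of 600 to 1000 bp had 47.5 reads per kb on chromosome 7 and 47.5 on the other autosomes, and peaks of 1000 to 2000 bp had 64.1 on chromosome 7 and 63.6 on the other autosomes. Peaks of 1000 to 2000 bp made up 31.4% of the peaks on chromosome 7, against 29.0% on the other autosomes. Peaks over 3 kb made up 2.34% on chromosome 7 and 1.89% on the others, but reads were recovered for only 8 of these 117 peaks on chromosome 7.

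Along the chromosome the peaks were spread very unevenly. In bins of 1 Mb, 150 in all, the median bin held 17.5 peaks, with quartiles of 3 and 48.75, while the mean was 33.3. A bin with 35 or more peaks, that is at least 2 times the median, is termed crowded here, and a bin with at most 5 peaks sparse. The 56 crowded bins, 37.3% of all bins, held 4227 peaks or 84.7% of the total. The 49 sparse bins, 32.7% of all bins, held 73 peaks or 1.46%. As a share of bins, chromosome 7 had both more crowded and more sparse megabases than the other autosomes pooled. The limit of 35 came from its own median bin, and single autosomes can exceed it. The median bin of chromosome 11, at 40 peaks, was itself crowded. On the other autosomes 30.3% of bins reached 35 peaks, 28.4% had at most 5, and 41.3% lay between, against 30.0% between on chromosome 7.

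**Figure D1:**
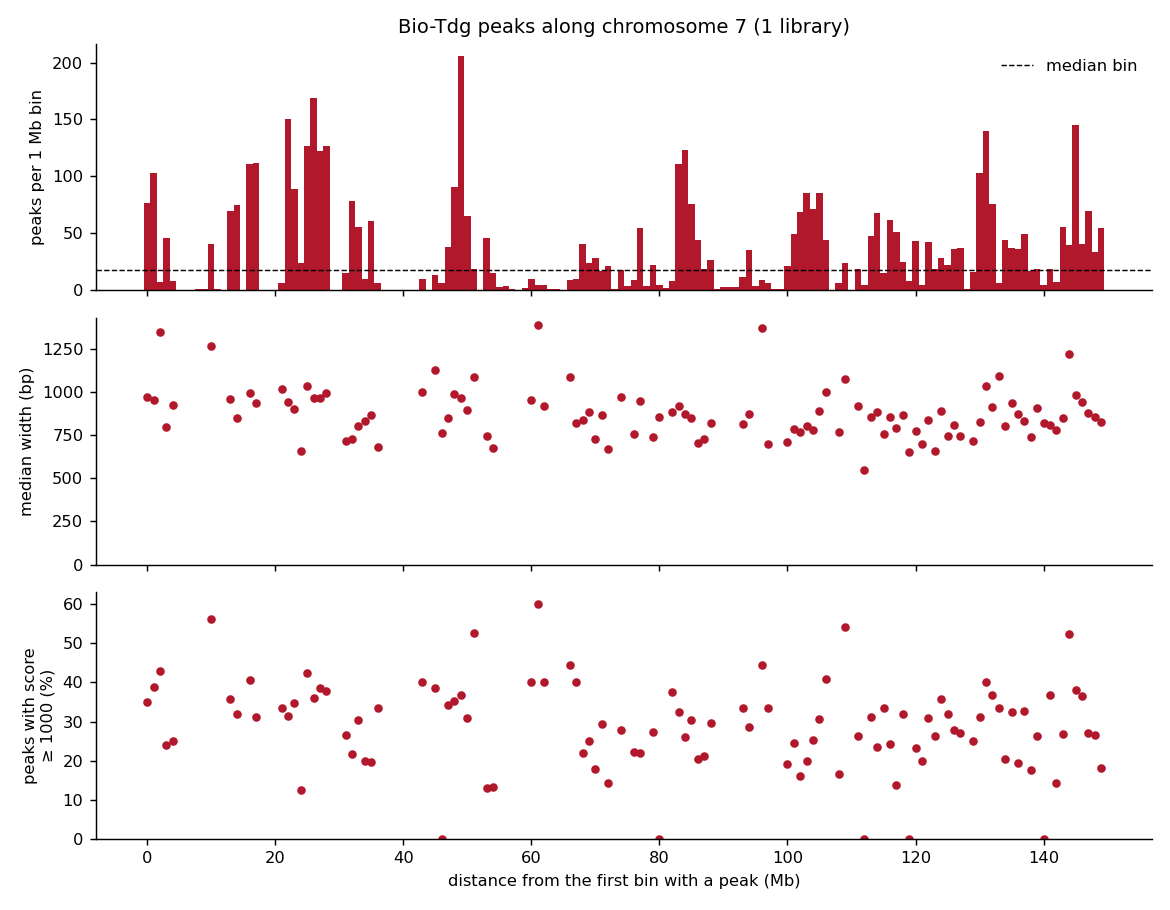
Bio-Tdg peaks along chromosome 7 in bins of 1 Mb, with the distance from the first bin that holds a peak on the x axis. The top panel shows peaks per bin with the median bin of 17.5 as a dashed line, the middle and bottom panels show the median width in bp and the percentage of peaks with a score of at least 1000 in bins with at least 5 peaks. Crowded blocks alternate with bins at 0, mostly on the low-coordinate side.

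The most crowded megabase was 52000001 to 53000000 with 206 peaks, followed by 29000001 to 30000000 with 169. Next came 25000001 to 26000000 with 150 peaks, 148000001 to 149000000 with 145 and 134000001 to 135000000 with 140. Of the 10 fullest bins, 7 lay on the low-coordinate side of the midpoint, and 4 of them formed a single block. The remaining 5 of the 10 were 28000001 to 29000000 and 31000001 to 32000000 with 127 peaks each, 87000001 to 88000000 with 123, 30000001 to 31000000 with 122 and 20000001 to 21000000 with 112. Together the 10 bins held 1421 peaks, 28.5% of the chromosome's total. By number of peaks with a score of at least 1000, 8 of these 10 bins were again among the first 10. That number counts a part of the same peaks, so it rises with the total and is no separate support. As a share of the bin, such peaks ran from 26.0% in 87000001 to 88000000 to 42.5% in 28000001 to 29000000. The share on the whole chromosome was 31.0%. Peaks covered 253 kb of the fullest bin and 208 kb of the second.

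Crowded bins joined into 7 regions of 3 or more adjacent megabases, which took up 20% of the bins and held 50.9% of the peaks. The densest was 28000001 to 32000000 with 545 peaks, or 136 per Mb (125 to 148). The region 133000001 to 136000000 had 106 peaks per Mb and 50000001 to 54000000 had 100 per Mb. The other 4 were 86000001 to 90000000 at 88.5 per Mb, 146000001 to 151000000 at 70.4, 104000001 to 110000000 at 67.2 and 137000001 to 141000000 at 41.5. Peaks within them differed in size. The region starting at 28000001 had a median width of 992 bp and 53.5 reads, and 38.5% of its peaks reached a score of 1000. The longest region, starting at 104000001, had a median width of 843 bp and 41 reads, and 25.3% reached that score. The order of the regions by crowding was not their order by length, and it followed the size of peaks in part. The densest region had the widest median and the least dense the narrowest, at 840.5 bp. The region at 70.4 per Mb had 967 bp, against 934 bp at 106 per Mb.

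At the other extreme, 22 bins or 14.7% held no peak. This was the highest share among the 19 autosomes, with chromosome 14 next at 13.3% and chromosome 11 lowest at 0.840%. Of the 22 empty bins, 20 lay on the low-coordinate side of the midpoint. Most of the fullest bins and most of the empty ones thus lay on the same side, and the 2 sides had similar totals. The far side held 2592 peaks and the near side 2401, a ratio of 1.08. With only peaks of a score of at least 500 the ratio was 0.976, and with a score of at least 1000 it was 0.930, so the direction of this difference depended on the threshold. When peaks less than 5 kb apart were merged the ratio was 1.44. Peaks on the far side were narrower, with a median of 859 bp, against 913 bp on the near side.

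Divided into 10 parts of 14.9 Mb, part 2 had 69.4 peaks per Mb (65.3 to 73.8) and part 5 had 12.7 (10.98 to 14.67). Part 3, next to the densest, had 15.8 per Mb. On the far side the parts ranged less, with 23.2 per Mb in part 7 and 44.2 in part 10. The correlation between bins at a given distance describes the size of these blocks. Spearman's rho of the peak numbers was 0.45 between neighbouring bins (149 pairs), 0.23 at 2 Mb and -0.11 at 5 Mb. The bins share a library and each enters several pairs, and no p is given. Blocks of high or low density thus extended over a few megabases.

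The longest stretch without a peak, 39057428 to 46529253, measured 7.47 Mb and was the longest of any autosome. The second, 20577282 to 24866344, measured 4.29 Mb, and the third, 7252872 to 11080211, measured 3.83 Mb. These ranked 1, 3 and 4 among all autosomal stretches by length. The next on chromosome 7 were 31994217 to 34832348 at 2.84 Mb, 67149497 to 69375250 at 2.23 Mb, 14700615 to 16486493 at 1.79 Mb and 60364517 to 62090790 at 1.73 Mb. The list of 10 ended with 17659633 to 19331387 at 1.67 Mb, 54406379 to 56004432 at 1.598 Mb and 101361375 to 102957912 at 1.597 Mb. Only the last of them lay on the far side. The longest stretch stayed at 7.47 Mb when only peaks with a score of at least 500 or 1000 were kept, as the peaks at its ends had scores of 1907 and 1652.

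Chromosome 7 stood out in the longest stretches rather than in their number. It had 42 stretches of at least 0.5 Mb, 6.10% of the 688 on the autosomes, and its span is 6.20% of the autosomal length. Of the 13 autosomal stretches of at least 3 Mb it had 3, or 23.1%. Stretches of at least 1 Mb numbered 20 and added up to 42.2 Mb, 28.3% of the chromosome 7 span, against 18.0% of the span of the other autosomes. Only chromosome 14 had a larger share, at 29.4%. Of these 20 stretches, 14 lay on the low-coordinate side. Assembly gaps were not removed from any stretch on any chromosome.

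**Figure D2:**
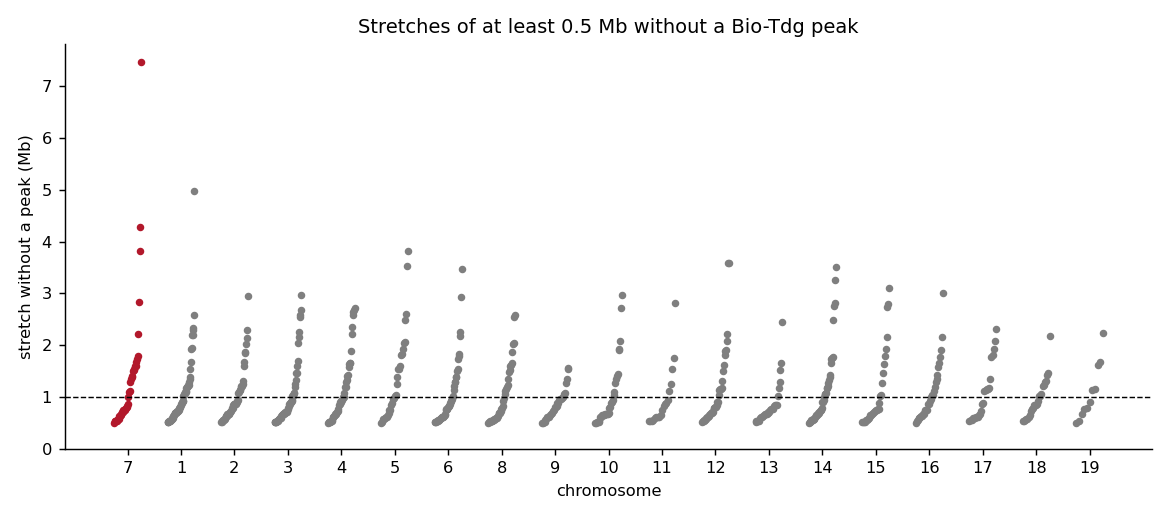
Length in Mb of each stretch of at least 0.5 Mb without a Bio-Tdg peak, by chromosome, with chromosome 7 in red at the left and the other autosomes in grey. Each point is a stretch and the dashed line marks 1 Mb; the longest, at 7.47 Mb, is on chromosome 7.

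The long empty stretches of chromosome 7 bordered on crowded sequence at a minority of their ends, but at a larger share of them than on the other autosomes. The megabase outside each end of a stretch of at least 1 Mb held a mean of 43.1 peaks on chromosome 7 (40 ends, median 22, quartiles 6 and 55.25). On the other autosomes it held a mean of 14.9 (484 ends, median 7, quartiles 3 and 20). The mean on chromosome 7 was the highest of the 19 autosomes, with chromosome 19 next at 31.9 over 10 ends. The median on chromosome 19 was also 22. A crowded megabase of 35 or more peaks followed at 15 of 40 ends on chromosome 7, or 37.5%, and at 57 of 484 ends on the others, or 11.8%. At least 100 peaks followed at 7 ends on chromosome 7 and at 3 on all other autosomes. The ratio of the means was 2.88, against a ratio of overall densities of 1.12. The peak that forms the end is included. A block that lies between 2 stretches is counted at both, as happens on chromosome 7 for the block in the bins 19000001 to 20000000 and 20000001 to 21000000 and for that in 16000001 to 17000000 and 17000001 to 18000000. The first gave 177 and 204 peaks at its 2 sides and the second 116 and 112, so 4 of the 7 ends with at least 100 peaks came from 2 blocks. When an end whose megabase shares a peak with the end before it was left out, the mean was 39.6 on chromosome 7 (33 ends, median 21) and 17.3 on the other autosomes (388 ends, median 9), and chromosome 7 still ranked highest. The share of crowded ends was then 36.4% on chromosome 7 and 14.4% on the other autosomes. This comparison was chosen after the values were seen, and no test was made.

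As a mean over all ends, the density near the end was close to that farther out. In the first 100 kb outside the stretch, leaving out the peak that forms the end, the density was already 37.5 peaks per Mb on chromosome 7, against 12.02 per Mb on the other autosomes. Over the next 900 kb it stayed between 38.75 and 45.25 on chromosome 7 and between 11.2 and 16.4 on the others. The peaks that formed the ends had a median width of 895 bp and 45.5 reads on chromosome 7, close to that chromosome's overall medians. On the other autosomes they had 726.5 bp and 33 reads, less than their overall medians of 849.5 bp and 41 reads. On chromosome 7 the peaks at the ends were thus of ordinary size.

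**Figure D3:**
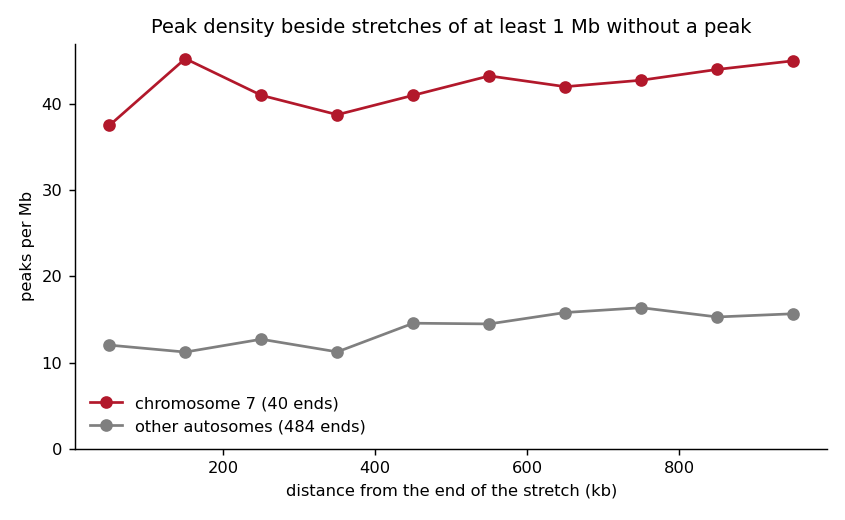
Peaks per Mb in steps of 100 kb away from the ends of stretches of at least 1 Mb without a peak, without the peak that forms the end. The line for chromosome 7 (40 ends) runs between 37.5 and 45.25, and the line for the other autosomes (484 ends) between 11.2 and 16.4.

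Some single boundaries showed a large step. The bin 31000001 to 32000000 held 127 peaks and the next bin 0, and the last peak before the stretch was 1208 bp wide with 79 reads. The bin 20000001 to 21000000 held 112 peaks and the next 0. Upward, the bin 18000001 to 19000000 held 0 peaks and the next 111, while 24000001 to 25000000 held 6 and the next 150. The megabase before the stretch from 20577282 held 204 peaks and the one after its end held 125. The longest stretch differed between its ends, with 67 peaks in the megabase before it and 10 after it. Its bordering peaks were 1884 bp wide with 136 reads and 1542 bp wide with 116 reads. In all, 7 of the 56 crowded bins bordered directly on an empty one, and 14 on a sparse one, a class that includes the empty bins. Empty bins were 14.7% and sparse bins 32.7% of all bins, and a bin has a neighbour on each side. Most crowded bins thus bordered on no sparse bin, and large steps were not the rule.

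Peaks in crowded and sparse bins differed little in size. On chromosome 7 the median width was 896 bp in crowded bins, 810 bp in bins of 6 to 34 peaks and 845 bp in sparse bins. On the other autosomes the same 3 classes had 864, 813 and 786 bp. A score of at least 1000 was reached by 31.6% of peaks in crowded bins of chromosome 7 (exact 95% binomial interval 30.2 to 33.0), against 28.8% on the other autosomes (28.4 to 29.2). In sparse bins it was 24.7% (15.3 to 36.1) on chromosome 7, where 73 peaks limit the precision, and 25.4% (23.1 to 27.9) on the others. Read density was 50.6 reads per kb in the crowded and 51.0 in the sparse bins of chromosome 7. A sparse megabase thus had few peaks, but those it had were of the usual density.

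**Figure D4:**
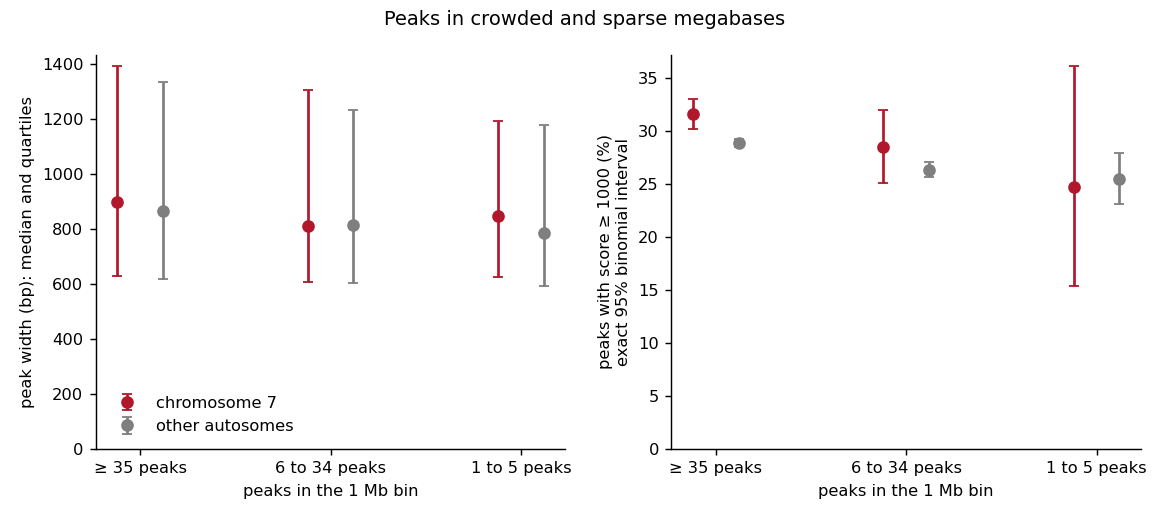
Peaks grouped by the number of peaks in their 1 Mb bin, on chromosome 7 in red and on the other autosomes in grey. The left panel shows the median width in bp with quartiles as bars, the right panel the percentage of peaks with a score of at least 1000 with its exact 95% binomial interval; the 31.6% in crowded bins of chromosome 7 lies above the 28.8% of the other autosomes, and the intervals of the sparse bins overlap.

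Over the 107 bins with at least 5 peaks, the number of peaks was weakly related to the median width (Spearman's rho 0.24) and to the median read density (0.13). These are descriptions across bins of a single library, with no p. Bin medians of width ran from 546 to 1384 bp, and medians of bins with 5 peaks are imprecise. Among the 68 bins with at least 20 peaks, the widest median belonged to 13000001 to 14000000. Its 41 peaks had a median width of 1265 bp, 92 reads and 67.3 reads per kb, and 56.1% reached a score of 1000. This bin lay between a sparse region of 5 Mb with 2 peaks in all and a bin with 1 peak. Next were 147000001 to 148000000 with 1220.5 bp over 40 peaks and 112000001 to 113000000 with 1077 bp over 24 peaks. The narrowest was 27000001 to 28000000 with 654.5 bp over 24 peaks, directly before the densest region. These bins were picked after their values were seen.

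The 6 sparse regions of 3 or more adjacent megabases took up 18.7% of the bins and held 34 peaks in all, or 1.21 per Mb. The regions 40000001 to 46000000 and 21000001 to 24000000 held none. A count of 0 would allow up to 0.50 and 1.0 peaks per Mb there, at 3 counts per region. Those limits hold only for a region fixed beforehand, and these regions were drawn around bins with few or no peaks. The region 8000001 to 13000000 held 2 peaks, 58000001 to 63000000 held 10, 64000001 to 69000000 held 12 and 92000001 to 96000000 held 10. The few peaks in these regions were not narrow, with a median width of at least 962.5 bp in each region that held any. These medians rest on 2 to 12 peaks each. Over all 73 peaks in sparse bins the median was 845 bp, below the 885 bp of the whole chromosome. The 12 peaks between 64000001 and 69000000 had the widest median, 1130 bp, with 60.3 reads per kb, and 6 of them reached a score of 1000. That score was reached by 3 of 10 peaks in the region from 58000001, 3 of 10 in that from 92000001 and 0 of 2 in that from 8000001.

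At short range the peaks of chromosome 7 lay closer together than those of most autosomes. From a peak to its next neighbour, midpoint to midpoint, the median was 5966 bp on chromosome 7, the third shortest of the 19 autosomes, and 7300.0 bp on the other autosomes pooled. Of the distances, 44.6% were under 5 kb on chromosome 7 and 40.1% on the others. Another peak within 5 kb was present for 3241 peaks of chromosome 7, or 64.9%, against 59.7% on the other autosomes. The 189 peaks of chromosome 7 with none within 50 kb, 3.79% of the chromosome's total, were narrower, with a median of 751 bp and 36 reads. On the other autosomes 4.71% of peaks were as isolated, with a median of 775 bp and 36 reads.

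Joining peaks less than 5 kb apart left 2460 runs on chromosome 7, of which 984 had 2 or more peaks and held 70.4% of the peaks. The largest had 25 peaks over 62.2 kb, from 29696136 to 29758382, inside the densest region. With a limit of 1 kb, 758 runs of 2 or more peaks held 35.5% of the peaks. The longest of these ran from 119828161 to 119844256 with 9 peaks over 16096 bp, 69.6% of it covered by peaks. It was followed by 28109836 to 28123471 with 4 peaks, 29155677 to 29169035 with 3, 86531045 to 86544335 with 7 and 134886954 to 134899196 with 5. The runs of 4 and 3 peaks were 92.4% and 92.0% covered, with little sequence between their peaks, and the first had wider gaps.

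The widest peak was 26062114 to 26069896 at 7783 bp, followed by 28113566 to 28120156 at 6591 bp, 134886954 to 134892983 at 6030 bp, 19942511 to 19948413 at 5903 bp and 20281569 to 20287272 at 5704 bp. All 5 had the score of 3100 that the list gives to most peaks beyond the range of the p-value. Of these 5 peaks, 4 lay on the low-coordinate side, which held 48.1% of all peaks of the chromosome, in crowded bins of 89 to 127 peaks. The highest scores belonged to 148263485 to 148266700 and 119833082 to 119836239, both with 3230, then 134488363 to 134490853 with 3219, 105963008 to 105965554 with 3217 and 29165640 to 29169035 with 3212. Scores in this range do not rank peaks, because most peaks beyond the range of the p-value share the score of 3100, 142 of 170 on chromosome 7. Reads could not be recovered for these 170 peaks, 3.40% of the chromosome's total, with scores from 3054.76 upward. These 170 peaks had a median width of 3181.5 bp and spread over 59 bins, at most 13 in a bin, and 159 of them lay in crowded bins. Crowded bins held 84.7% of all peaks of chromosome 7, and 3.76% of their peaks had no recovered reads. In sparse bins there were 0 of 73, which allows a share of up to 4.11% (3 counts of 73).

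Among peaks with recovered reads, 29361252 to 29365132 had the most, 224 reads over 3881 bp. It was followed by 86642190 to 86645300 with 217 reads, 125633061 to 125636052 with 216, 51682750 to 51686204 with 215 and 52954668 to 52957433 with 213. All 5 lay in crowded bins, which held 84.7% of all peaks of the chromosome. The densest of the 5 was the last, at 77.0 reads per kb, and the first had 57.7. At the low end, 40 peaks of chromosome 7 shared the lowest score of the list, 258.29, each 552 bp wide.

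Relative to its genes chromosome 7 had few peaks. The RefSeq gene table (GRCm38.p6) lists 2030 protein-coding genes on chromosome 7, the most of any chromosome, or 13.6 per Mb of the span from first to last peak. Chromosome 11 had almost the same gene density, 13.55 per Mb, and 55.8 peaks per Mb. Chromosome 7 had 2.46 peaks per gene (exact 95% Poisson interval 2.39 to 2.53), against 3.61 over the other autosomes, where chromosome 14 was lowest at 2.71 and chromosome 15 highest at 4.18. The table was used for names, numbers and order of genes only, because its build differs from that of the peaks.

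A large part of these genes are receptors of smell and pheromone sensing. Counted by symbol, chromosome 7 has 239 olfactory receptor genes (Olfr), 126 type 1 vomeronasal receptors (Vmn1r) and 52 type 2 vomeronasal receptors (Vmn2r). Receptor genes with any other form of symbol, such as V1rd19, are not in these counts. Together they are 417 genes, or 20.5% of its protein-coding genes, against 5.58% on the other autosomes. The Vmn1r genes of chromosome 7 are 54.8% of all Vmn1r genes in the table, and the Vmn2r genes are 42.3% of theirs. Without the 3 families chromosome 7 had 1613 genes and 3.10 peaks per gene (3.01 to 3.18), and the other autosomes had 3.82. The lowest place then fell to chromosome 14 at 2.84, with chromosome 7 second lowest and chromosome 3 at 3.17 (3.06 to 3.28), an interval that overlaps that of chromosome 7. Gene density without the families was 10.8 per Mb on chromosome 7, below only chromosomes 11 and 19. Chromosome 2, which has 287 such receptor genes, had 3.39 peaks per gene with them and 4.04 without.

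**Figure D5:**
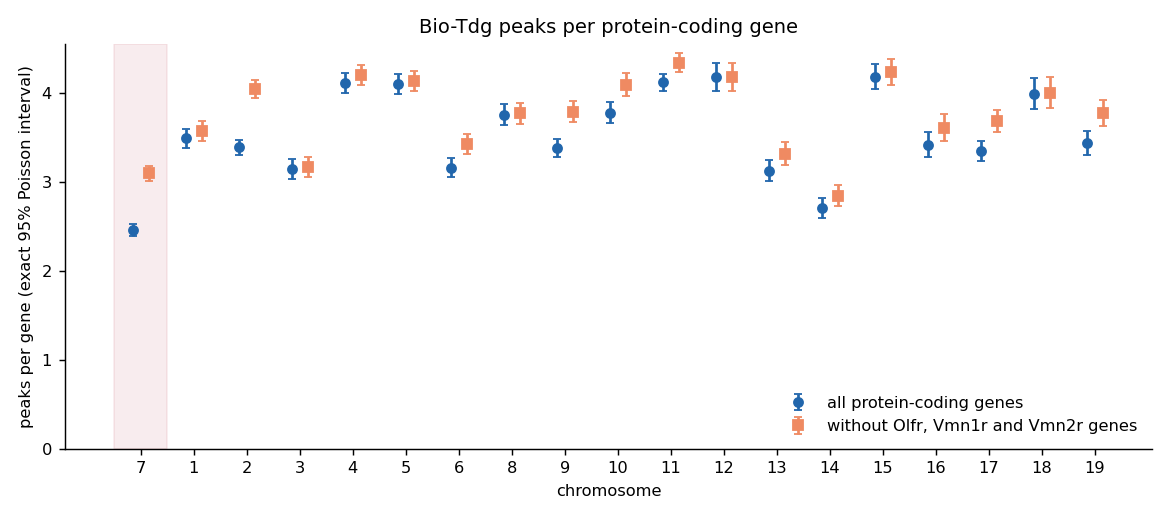
Bio-Tdg peaks per protein-coding gene by chromosome, with exact 95% Poisson intervals, for all genes (circles) and without olfactory and vomeronasal receptor genes (squares). Chromosome 7, shaded at the left, had 2.46 with all genes and 3.10 without those families, the lowest and the second lowest of the 19 autosomes.

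The count of peaks per gene also depended on how peaks were counted. With a score of at least 1000, chromosome 7 had 0.764 peaks per gene, second lowest after chromosome 14, and without the receptor genes 0.961, sixth lowest. With peaks less than 5 kb apart merged it had 1.21 runs per gene and 1.53 without the receptor genes, in both cases the lowest of the 19 autosomes.

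Some other gene families are also concentrated on chromosome 7, which has 2030 protein-coding genes against 18635 on the other autosomes together. All 15 Ceacam genes (carcinoembryonic antigen-related adhesion molecules) and all 13 Psg genes (pregnancy-specific glycoproteins) of the table are there. So are 26 of 27 genes of the kallikrein family of serine proteases (Klk), 36 of 40 secretoglobin genes (Scgb) and 19 of 20 Mrgpr genes, which encode receptors of sensory neurons. Zinc finger genes with a Zfp symbol number 93 on chromosome 7 of 400 in the table, or 23.25%, with 298 on the other autosomes. That is more than on any other autosome, but chromosome 7 also has the most genes in all. Potassium channel genes with a Kcn symbol were not concentrated there, although chromosome 7 ranks 2 among the autosomes for them. They number 9 of 94, or 9.57%, with 83 on the other autosomes, close to the proportion for all protein-coding genes. Of 35 bitter taste receptors (Tas2r), by contrast, 0 are on chromosome 7.

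The receptor genes lie in long arrays. In gene order, 18 runs of at least 8 neighbouring protein-coding genes consisted of Olfr, Vmn1r or Vmn2r genes alone, and they held 317 of the 417. Of the 8 runs made mostly of vomeronasal receptors, 8 began within the first 25% of the chromosome's genes. They included a run of 16 Vmn2r genes after Clcn4, a run of 13 Vmn1r genes after Zscan4f and a run of 15 Vmn1r genes after Nlrp5. Of the 10 mostly olfactory runs, 9 began farther along. The longest, with 42 Olfr genes, lies between Ovch2 and Nlrp10, and runs of 25 and 16 Olfr genes lie on either side of the beta-globin genes, next to Hbb-bt and Hbb-y. Whether any of these arrays coincides with a stretch without peaks was not tested, since no gene positions of the peaks' build were used.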

How the data were processed

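Per the submitters' processing notes, the tools were MACS 1.4.1, Bowtie 0.12.7 and CASAVA 1.8 on build mm9. Their settings, the peak threshold and the control library are not stated there. The deposited list gives start, end and a score per peak, in the form of MACS output, where the score is 10 times the negative log10 of the p-value. It was used only within this list, and starts are printed counting from 1.

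Reads per peak were recovered by fitting a single rate, 1.13 reads per kb, so that each score up to 3049.44 equals the Poisson tail of a whole number of reads over the peak width (at least 370 bp). All 70884 such scores lay within 0.01 score units, and a step of 1 read moves it by 16.6 at the median. Reads are 1 higher if the caller counted "at least". The code of this step was checked on simulated scores made with the same formula, which does not test whether the deposited scores follow it.

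Peaks were assigned to 1 Mb bins by midpoint. Named were the 10 fullest bins, the 10 longest stretches, the 5 highest-scoring, widest and read-richest peaks, the 5 longest runs and all runs of 3 crowded or sparse bins. Members, lists and rules were chosen with earlier results of these data known. Genes were counted per chromosome by symbol in RefSeq's GRCm38.p6 table. No test was made, as each group has 1 library. Computation used Python 3.11.15 with matplotlib 3.10.9, pandas 2.3.3, scipy 1.17.1 and numpy 2.4.6.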

Additional observations from a re-analysis of the deposited data

How the results depend on the processing

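The density of chromosome 7 relative to the other autosomes (1.12) was 1.18 and 1.23 at scores of at least 500 and 1000, 1.01 with merging within 5 kb, 1.16 in bases covered and 1.18 without chromosome 11. Peaks per gene (2.46) were 3.10 without receptor genes, 0.764 at a score of at least 1000 and 1.21 with merging within 5 kb. The share of peaks in the fullest 10% of bins (38.9%) was 42.0% and 44.9% at those scores, 35.9% and 27.5% with merging within 1 and 5 kb, 41.5% in bases covered, and 43.1%, 35.3% and 41.4% with bins of 0.5 Mb, of 2 Mb and shifted by 0.5 Mb. Empty bins (22) numbered 30 and 40 at scores of at least 500 and 1000, since fewer peaks remained. They numbered 70 with bins of 0.5 Mb and 6 with bins of 2 Mb, also by construction. The ratio of far to near side (1.08) reversed to 0.976 and 0.930 at scores of at least 500 and 1000, and was 1.15 and 1.44 with merging within 1 and 5 kb and 1.02 in bases covered; the cause was not tested. The median distance (5966 bp) was 10281 and 19514 bp at those scores and 9140.0 and 21382 bp with merging within 1 and 5 kb, since fewer peaks remained. The median width (885 bp) was 1276 bp at a score of at least 500 and 1045 bp with merging within 1 kb. The mean number of peaks beside a long stretch (43.1) was 33.6 for stretches of at least 0.5 Mb, where chromosome 19 was higher at 37.2, 65.5 for at least 2 Mb and 39.6 with shared blocks counted once, all 3 chosen after seeing the data. The longest stretch was 7.47 Mb in all 4 settings run for it. No paired analysis was possible because there is a single library in each group, and values come from Bio-Tdg alone. The depth of the library is unknown and the lowest peak held 21 reads, so a stretch without a peak does not show that binding is absent.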
